A study of Homo sapiens with 9 samples.

Results

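The comparison described here is that of the SP group (AuSP-PEG-Ab, gold nanospheres that carry Ramucirumab through a polyethylene glycol linker) with the Ab group (free Ramucirumab) in SNU5, a human gastric carcinoma cell line. Its members were chosen by label alone: the 3 SP libraries against the 3 Ab libraries, 6 of the 9 in the series. Both groups received 8 µg/mL of antibody for 24 h, so they share the antibody, the dose and the time and differ in the gold sphere and its linker. The remaining group, NR (AuNR-PEG-Ab, gold nanorods with the same antibody at the same dose and time), is used to place the sphere values and in 1 alternative fit. No library of untreated cells or of gold without antibody was analysed here. The study calls the libraries of a group biological replicates, the labels do not describe their cultures, and p-values measure the spread between these libraries.

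Ramucirumab is a monoclonal antibody that binds VEGFR2, the receptor encoded by KDR. Gold particles that bear antibody are taken into cells mainly by endocytosis and reach endosomes and lysosomes. Transcription factors set which genes are read, secreted and membrane proteins set what a cell shows and sends to its surroundings, and metabolic enzymes and non-coding RNAs report on how it makes its building blocks, so the comparison is described in that order.

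Poly-A RNA was measured as whole read counts per Ensembl gene. The SP libraries 1, 2 and 3 held 21682836, 22914759 and 20601906 counts. The Ab libraries 1, 2 and 3 held 19566064, 26318227 and 21031024 counts. The depth of the groups therefore overlapped. Levels are given below as counts per 1e6 counts of effective library size (CPM). In these 6 libraries 3 counts in a library, the limit that a count of 0 allows, were 0.114 to 0.153 per 1e6 counts of the library total. Such limits, and the intervals given below for ratios of counts, cover counting error only. Counts on mitochondrial genes made up 4.40% to 4.66% in SP and 3.41% to 3.71% in Ab. The part of this difference in the other results was not tested.

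Of 14 epithelial and gastric carcinoma markers 10 had enough counts for a test, but several defining ones were absent. By the thresholds given below, 5 of the 10 (50%) were called higher and 0 lower, with a median log2 fold change of 1.06. At the adjusted p alone 6 were higher and 1 lower. KRT8 rose from 655 ± 18.4 to 1966 ± 49.3 CPM. KRT8 and KRT18, the keratins of simple epithelia, were detected in all 6 libraries, as were KRT7, the tight junction genes CLDN4 and CLDN7, and MET, the receptor of hepatocyte growth factor. KRT19, TFF3 and ESRP1, a splicing factor of epithelial cells, never passed 1 count in a library, and KRT20 reached at most 6. EPCAM had 123, 108 and 91 counts in SP and 29, 43 and 35 in Ab. KDR, the target of the antibody, had 0 counts in all 6 libraries, which allows up to 3 counts in each. The other VEGF receptor genes FLT1 and FLT4 reached at most 3 counts. FCGR1A, the high affinity Fc receptor for IgG, had 1, 4 and 3 counts in SP and 11, 2 and 7 in Ab, too few for a test, and the groups overlapped.

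Markers of other cell types were partly at 0 and partly moved with the group. Of 14 leukocyte markers, 9 never passed 3 counts in a library, among them PTPRC, CD3D, LYZ and MS4A1. CSF1R had 124, 91 and 56 counts in SP and 3, 8 and 3 in Ab, and CD14 had 4, 1 and 4 against 21, 13 and 8. The summed leukocyte markers were 7.01 ± 1.10 CPM (SD, n = 3) in SP and 1.72 ± 0.481 CPM in Ab, with CSF1R the most abundant. Of 9 fibroblast markers 8 were tested and 4, LUM, DCN, PDGFRB and FAP, rose with SP. COL1A1, COL1A2, COL3A1 and PDGFRA did not pass the adjusted p, with log2 fold changes of 0.72, -1.81, 0.27 and 0.05, and THY1 had 1 count in all. The sum was 121 ± 4.17 CPM in SP and 38.5 ± 15.95 CPM in Ab, with COL1A1 the most abundant. Of 8 endothelial markers 3 were tested, and VWF and CDH5 rose. ESAM, the most abundant, did not pass the adjusted p, at 28.7 ± 2.21 CPM in SP and 28.9 ± 1.15 CPM in Ab. EMCN, ERG, TIE1 and TEK never passed 3 counts. The sum was 51.3 ± 3.78 CPM in SP and 33.2 ± 0.496 CPM in Ab, and CDH5 rose from 4.12 ± 0.810 to 21.0 ± 1.45 CPM. The part of other cells in the results was not tested, and in bulk RNA fewer cells of a type and less RNA per cell cannot be told apart.

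A total of 15068 genes of the 60880 in the files had enough counts for a test. Genes were called at a Benjamini-Hochberg adjusted p of 0.05 or less, from edgeR's quasi-likelihood test over all genes tested, together with a 2-fold or larger change. With SP, 3502 genes (23.2%) were called, of which 1898 (12.6%) were higher and 1604 (10.6%) lower than with Ab. Without a fold minimum 11002 genes (73.0%) passed, 5492 higher and 5510 lower. The scaling of the libraries centres the fold changes (median log2 fold change -0.00674), so it largely sets this balance. In 11346 genes (75.3%) the 3 SP libraries and the 3 Ab libraries did not overlap. The genes called higher held 8.62% to 8.67% of all counts in SP libraries and 2.99% to 3.08% in Ab libraries. Those called lower held 4.16% to 4.24% in SP and 11.4% to 11.5% in Ab.

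Large changes were more often rises than falls. Of the called genes, 583 rose and 360 fell at least 4-fold, and 235 rose and 83 fell at least 8-fold. Calls were more frequent at low levels. Among the 5564 tested genes with a mean under 10 CPM, 1134 (20.4%) were called higher and 932 (16.8%) lower. Among the 9504 genes at or over 10 CPM the numbers were 764 (8.04%) and 672 (7.07%). The shares of genes in a list therefore have to be read beside their level. The shares given below in parentheses after the counts of a list are to be set beside 12.6% higher and 10.6% lower over all genes tested.

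**Figure D1:**
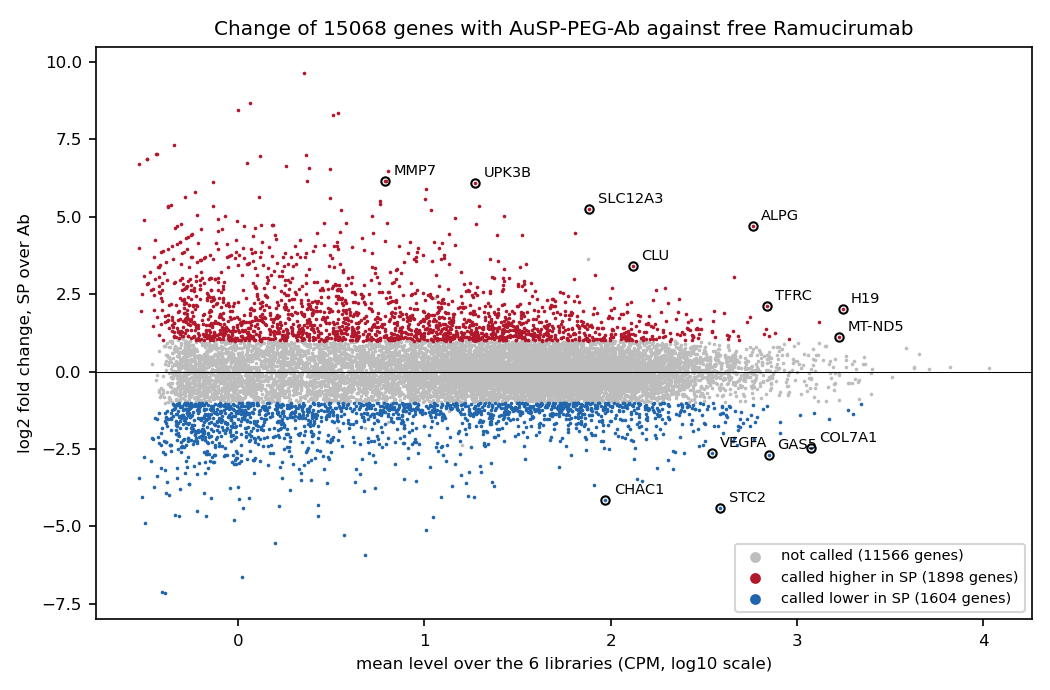
Log2 fold change of SP over Ab (vertical axis) against the mean level over the 6 libraries (horizontal axis, CPM on a log10 scale), with a point for each of the 15068 genes tested. The 1898 red and 1604 blue points are genes called higher and lower; circles mark named genes, and the widest changes lie at low levels, with ALPG, SLC12A3 and STC2 as large changes at higher levels.

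The protein-coding genes with the largest rises were nearly silent with free antibody. KLHDC7A, a kelch domain gene, had 164, 164 and 123 counts in SP and 1, 0 and 0 in Ab, a ratio of 455 with a 95% exact interval of 81.2 to 18005. PADI2, an enzyme that turns arginine in proteins into citrulline, had 147, 155 and 124 counts in SP and 0, 1 and 0 in Ab. OLAH, a thioesterase that releases medium-chain fatty acids, had 129, 143 and 134 counts in SP and 2, 0 and 2 in Ab. In each of these genes the Ab libraries were at the limit of detection and no SP library came near them. METTL7A and METTL7B, methyltransferase-like proteins of the endoplasmic reticulum and lipid droplets, stood in the same group of 10, with 95, 114 and 106 against 0, 2 and 1 counts for METTL7A and 300, 275 and 252 against 1, 5 and 3 for METTL7B. The remaining members were PSAPL1, SUSD2, ABCA13, MMP7 and UPK3B, of which the last 3 are given with their classes.

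Genes with the largest falls lost most of a higher starting level. KLHDC7B fell from 189, 276 and 168 counts in Ab to 3, 1 and 6 in SP (log2 fold change -5.91 ± 0.29 SE). BEST1, a chloride channel, fell from 441, 538 and 428 counts to 17, 18 and 19 (-4.69 ± 0.15). NUPR1, a small nuclear protein induced by cellular stress, fell from 692, 884 and 723 counts to 42, 48 and 47 (-4.06 ± 0.11). CALML6, ZDHHC11, UCN2 and NIBAN1 fell by 3.70 to 4.30 on the log2 scale. STC2, IL1RL1 and CHAC1, which complete this group of 10, are described with their classes.

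The genes of this paragraph were chosen with their values in view. ALPG, an alkaline phosphatase of germ cells and placenta on chromosome 2 (233271554 to 233275424, GRCh37), had 24463, 25288 and 23381 counts in SP and 890, 1072 and 877 in Ab. Its level rose from 43.1 ± 2.72 CPM to 1114 ± 20.5 CPM (log2 fold change 4.69 ± 0.05 SE, adjusted p = 3.33e-30). ALPP, its placental neighbour, rose from 99.4 ± 7.81 to 819 ± 15.4 CPM (3.04 ± 0.05), but the coding sequences are close to identical and reads can be split between them, so the share of each is uncertain. MAOB, the mitochondrial monoamine oxidase, rose from 48.4 ± 3.02 to 303 ± 9.15 CPM. TRIB3, a pseudokinase that binds ATF4, fell from 502 ± 35.4 to 95.4 ± 8.09 CPM.

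Transcription factor genes were called lower more often than higher. Of 812 tested, 57 were called higher and 133 lower, with a median log2 fold change of -0.35 beside -0.00674 over all genes tested. Without a fold minimum, 159 were higher and 455 lower. The class took 2.68% to 2.75% of all counts in SP libraries and 3.77% to 3.79% in Ab libraries, with no overlap. At or over 10 CPM, 16 of 519 were called higher and 95 lower (18.3%, beside 7.07% of all genes at that level), while under 10 CPM the numbers were 41 and 38 of 293 (13.99% and 12.97%, beside 20.4% and 16.8%). The 464 ZNF zinc finger genes, many of them DNA-binding repressors, had 19 called higher (4.09%) and 67 lower (14.4%), beside 12.6% and 10.6% over all genes tested.

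The bZIP factors, which pair through leucine zippers and include the AP-1, C/EBP and ATF families, had the lowest median of the transcription factor lists (-0.66), with 4 of 42 called higher (9.52%) and 14 lower (33.3%). FOSL1, an AP-1 subunit, fell from 7916, 9750 and 7897 counts in Ab to 974, 1006 and 926 in SP (log2 fold change -3.13 ± 0.05 SE, adjusted p = 2.46e-26). JUN, its usual partner, fell from 369 ± 14.6 to 113 ± 3.17 CPM (-1.71 ± 0.05). FOS went the other way, from 6.75 ± 0.261 to 21.6 ± 3.29 CPM (1.67 ± 0.11). AP-1 genes therefore did not move as 1 group.

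Several C/EBP and ATF members of that list fell. ATF4, a translationally controlled activator of amino acid synthesis genes, had 5718, 6405 and 6117 counts in SP and 15860, 20093 and 16507 in Ab (log2 fold change -1.52 ± 0.05 SE). DDIT3, the C/EBP-related factor known as CHOP, fell from 42.6 ± 2.60 to 3.62 ± 0.511 CPM (-3.56 ± 0.10), though 39.6% of its exon bases are shared with another gene. ATF3 fell by 1.36 ± 0.06 on the log2 scale. CEBPB and CEBPG, named with their values in view, fell by 1.76 and 2.23. ATF6 and XBP1, regulators of the endoplasmic reticulum stress response, passed the adjusted p but stayed under 2-fold, at -0.65 ± 0.05 and -0.53 ± 0.04.

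Of 22 Krüppel-like and related zinc finger factors, 2 were called higher (9.09%) and 8 lower (36.4%). KLF4 fell from 149 ± 5.40 to 49.0 ± 1.06 CPM and KLF5, an epithelial growth factor-responsive gene, from 601 ± 17.8 to 271 ± 25.4 CPM (log2 fold change -1.15 ± 0.06 SE). EGR1, an immediate early gene, rose from 261, 309 and 253 counts to 763, 1001 and 994 (1.75 ± 0.10). RUNX1, counted among the signal-regulated factors, fell from 133 ± 6.20 to 31.9 ± 1.22 CPM (-2.06 ± 0.06).

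The largest rises among transcription factors included EHF and ZNF488. EHF, an ETS factor of epithelia, had 207, 192 and 184 counts in SP and 6, 13 and 10 in Ab (log2 fold change 4.33 ± 0.22 SE, adjusted p = 3.17e-16). ZNF488 had 517, 505 and 469 counts against 29, 32 and 32 (4.01 ± 0.13). All SP libraries of both genes were more than 10-fold above every Ab library. HNF4A, which drives hepatocyte and gut programmes, rose from 2.56 ± 0.510 to 8.59 ± 0.664 CPM. CDX2 had 0 counts in all 6 libraries and was not tested.

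Among 71 homeobox genes, 8 were called higher (11.3%) and 16 lower (22.5%), with HOXB13 up from 7.49 ± 0.112 to 27.5 ± 0.747 CPM and its cluster neighbour HOXB9 down from 38.4 ± 1.74 to 8.82 ± 0.592 CPM. Among forkhead, SOX and GATA factors, 3 of 37 were called higher (8.11%) and 7 lower (18.9%), beside 12.6% and 10.6% over all genes tested, with FOXQ1 and FOXC2 down by 1.98 and 1.93 on the log2 scale. NR1D1 and NR1D2, repressors of the circadian clock, fell by 2.29 and 1.73. ARNT2, a partner of hypoxia and neuronal bHLH factors, fell from 28.6 ± 0.236 to 2.83 ± 0.910 CPM. MLXIPL, the glucose-sensing factor ChREBP, fell from 40.4 ± 1.44 to 5.28 ± 0.661 CPM.

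Of the 27 regulators named whatever their values, several changed by less than 2-fold. SREBF1 and SREBF2, which drive fatty acid and sterol synthesis, were higher by 0.54 ± 0.06 and 0.57 ± 0.05 on the log2 scale (SE), and TFEB, a lysosomal regulator, by 0.70. MYC was lower by 0.52 ± 0.05, with 5159, 5805 and 5502 counts in SP and 7097, 9154 and 7462 in Ab. NFE2L2, the regulator of antioxidant genes, was at -0.48 ± 0.10, with 38.4% of its exon bases shared with another gene, and HIF1A at -0.18 ± 0.07. PPARA, PPARGC1A, SOX9 and IRF1 did not pass the adjusted p, with values from -0.11 to 0.23, and 22.9% of the exon bases of IRF1 are shared.

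**Figure D2:**
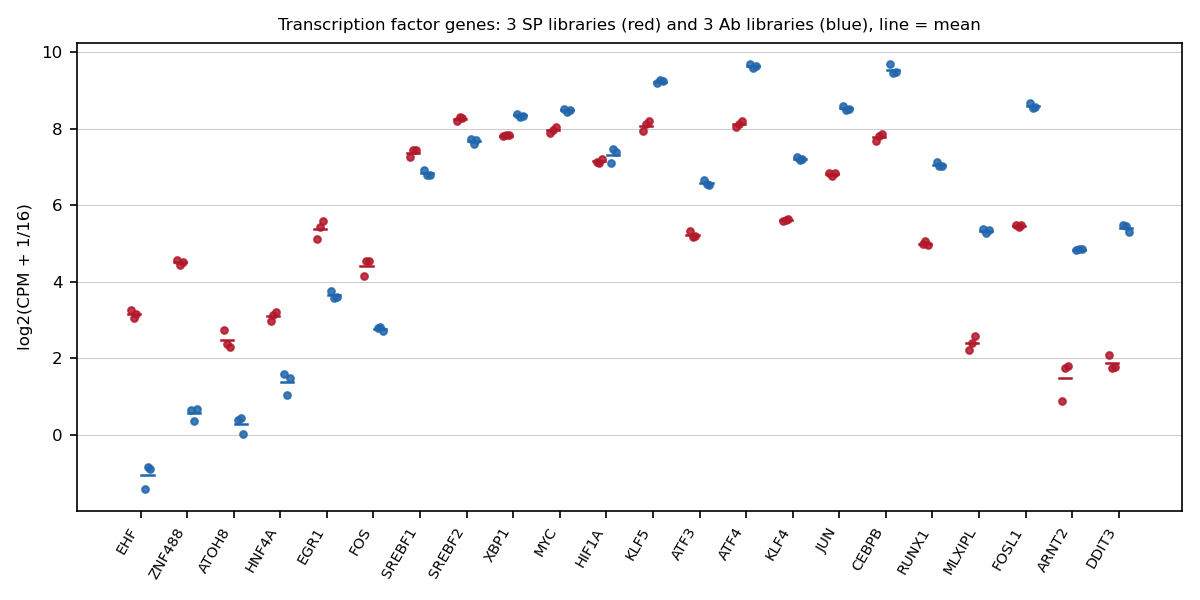
Level of 22 transcription factor genes in each library, as log2(CPM + 1/16), with 3 red points for SP and 3 blue points for Ab and a line at each mean. EHF and ZNF488 lie 4 log2 units higher in SP, FOSL1, ARNT2 and DDIT3 more than 3 lower, and MYC, HIF1A and XBP1 within 1.

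Secreted proteins were called in both directions, in 49.8% of the genes tested beside 23.2% of all genes. Of 265 tested, 85 were higher and 47 lower, with a median log2 fold change of 0.29. At or over 10 CPM, 40 of 143 were higher (28.0%, beside 8.04% of all genes at that level) and 21 lower (14.7%, beside 7.07%). The class took 2.03% to 2.099% of counts in SP and 1.94% to 2.06% in Ab, so its summed level overlapped between the groups while its makeup differed.

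Complement and plasma proteins were the secreted list with the highest median (1.84), with 12 of 16 tested called higher (75.0%) and 3 lower (18.8%). CLU, an extracellular chaperone, rose from 484, 547 and 456 counts to 5257, 5470 and 5015 (22.6 ± 2.19 to 240 ± 3.36 CPM, log2 fold change 3.41 ± 0.06 SE). C1S, a protease of the classical complement pathway, rose from 31, 55 and 31 counts to 551, 543 and 468 (3.75 ± 0.13). C3, the central complement component, named with its values in view, rose from 172 ± 8.77 to 639 ± 18.6 CPM. LCAT, which esterifies cholesterol in lipoproteins, fell from 16.9 ± 1.35 to 4.89 ± 0.852 CPM.

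Extracellular matrix genes rose in 28 of 77 (36.4%) and fell in 4 (5.19%), with a median of 0.58. LUM and DCN, neighbouring small leucine-rich proteoglycans on chromosome 12, rose from 18, 24 and 20 to 824, 891 and 802 counts and from 9, 21 and 7 to 443, 492 and 449. Their log2 fold changes were 5.35 ± 0.12 and 5.23 ± 0.18 (SE). FBLN1 and EFEMP1, fibulins that bind elastic fibres and were named with their values in view, rose from 377 ± 16.2 to 984 ± 22.3 CPM and from 52.1 ± 3.89 to 342 ± 3.93 CPM. COL7A1, the anchoring fibril collagen on chromosome 3, fell from 40768, 50867 and 41013 counts to 7884, 8683 and 7194 (-2.48 ± 0.05). COL1A1 and COL1A2 were not called: Ab library 3 had 293 counts for COL1A1 and 33 for COL1A2, against 580 and 709, and 198 and 278, in Ab libraries 1 and 2.

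Proteases and their inhibitors rose in 20 of 62 (32.3%) and fell in 9 (14.5%). MMP7, the matrilysin of glandular epithelia on chromosome 11 (102391239 to 102401481, GRCh37), had 256, 286 and 255 counts in SP and 4, 4 and 3 in Ab (log2 fold change 6.14 ± 0.23 SE, adjusted p = 4.89e-19). SPINK5, an inhibitor of kallikreins, had 1191, 1256 and 990 counts against 28, 39 and 38 (5.04 ± 0.11). TIMP1, an inhibitor of metalloproteinases named with its values in view, rose from 140 ± 9.39 to 342 ± 12.4 CPM. F3, the tissue factor that starts coagulation, fell from 188 ± 1.05 to 43.4 ± 1.63 CPM and SERPINE2 from 93.7 ± 0.739 to 24.4 ± 4.04 CPM.

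Of 38 growth factors and related ligands, 8 were called higher (21.1%) and 10 lower (26.3%), both above the shares over all genes tested, with a median of -0.48. STC2, a stanniocalcin glycoprotein on chromosome 5, fell from 14380, 19292 and 15294 counts to 859, 747 and 695, that is from 739 ± 5.31 to 35.0 ± 3.77 CPM (log2 fold change -4.40 ± 0.06 SE, adjusted p = 2.14e-26). VEGFA, the ligand of the receptor that Ramucirumab blocks, fell from 11978, 15457 and 12262 counts to 2126, 2304 and 1986 (600 ± 17.8 to 97.6 ± 1.70 CPM, -2.62 ± 0.05). IGFBP1, a binder of insulin-like growth factors, fell from 255 ± 5.02 to 23.3 ± 1.99 CPM. In each of these 3 genes every SP library was less than 0.2 of every Ab library. CCN5, a matricellular protein, rose from 76.9 ± 3.81 to 387 ± 16.8 CPM and GRN, progranulin of endosomes and lysosomes, named with its values in view, from 100.02 ± 2.17 to 257 ± 6.73 CPM.

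Cytokines and TGF-beta or WNT ligands split by member. Of 20 chemokines and interleukins, 8 were called higher (40.0%) and 5 lower (25%), with IL1B up from 28, 27 and 24 to 198, 141 and 130 counts and the IL-6 family ligands LIF and IL11 down by 2.25 ± 0.07 and 2.78 ± 0.16 on the log2 scale. Of 38 TGF-beta and WNT family genes, 7 were called higher (18.4%) and 8 lower (21.1%). WNT6 and WNT10B rose by 2.58 and 1.94, whereas FST, the activin antagonist, and AMH fell by 3.05 and 3.68. GDF15, a stress-induced TGF-beta relative named with its values in view, fell from 253 ± 21.4 to 55.7 ± 3.22 CPM. Mucins and other digestive secretions had 3 of 17 higher (17.6%) and 8 lower (47.1%). MUC5AC, the gel-forming mucin of gastric surface cells, had 1056, 664 and 452 counts in SP and 2248, 2804 and 2270 in Ab (adjusted p = 0.00746), with a wide spread among SP libraries, and it was not called when the test was made against 2-fold.

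Membrane protein genes were called higher more often than lower, and most of the rises were in genes under 10 CPM. Of 707 tested, 175 were higher and 80 lower, with a median of 0.18. Under 10 CPM, 117 of 283 (41.3%, beside 20.4% of all genes at that level) were higher and 40 lower (14.1%, beside 16.8%). At or over 10 CPM, 58 of 424 (13.7%, beside 8.04%) were higher and 40 lower (9.43%, beside 7.07%). The class took 4.65% to 4.78% of counts in SP and 5.17% to 5.22% in Ab, so its summed level was lower in SP although more of its genes rose than fell.

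Tetraspanins and membrane mucins had 14 of 26 called higher (53.8%), 1 lower (3.85%) and a median of 1.22. UPK3B, a plaque protein of bladder and mesothelium, had 998, 750 and 684 counts in SP and 7, 18 and 11 in Ab (log2 fold change 6.08 ± 0.22 SE). MUC1, the membrane mucin of epithelia, rose from 50.6 ± 2.62 to 183 ± 10.2 CPM. CEACAM7 rose from 43, 56 and 57 to 446, 474 and 437 counts, and CEACAM19 was the list's fall, from 631, 798 and 608 to 51, 63 and 53 counts.

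Integrins, cadherins and claudins were higher in 20 of 62 (32.3%) and lower in 6 (9.68%). CDH1, E-cadherin of epithelial junctions, had 134, 159 and 149 counts in SP and 5, 5 and 9 in Ab (log2 fold change 4.52 ± 0.26 SE), and F11R, a junctional adhesion molecule with 36.6% of its exon bases shared, rose by 3.59 ± 0.14. Of 32 receptor tyrosine kinases 3 were higher (9.38%) and 5 lower (15.6%), beside 12.6% and 10.6% over all genes tested. PDGFRB rose from 10, 11 and 8 to 256, 272 and 275 counts and FGFR4 from 5.90 ± 1.11 to 30.7 ± 1.67 CPM, while AXL fell from 257 ± 13.5 to 100.1 ± 6.29 CPM. MET did not pass the adjusted p, at 245 ± 6.18 CPM in SP and 252 ± 13.6 CPM in Ab. NRP1, a coreceptor of VEGF, fell by 1.21 ± 0.07.

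Among 219 solute carriers, 37 were higher (16.9%) and 27 lower (12.3%), near the 12.6% and 10.6% over all genes tested. SLC12A3, the thiazide-sensitive sodium chloride cotransporter on chromosome 16, had 3918, 3154 and 2780 counts in SP and 84, 81 and 94 in Ab (log2 fold change 5.25 ± 0.20 SE, adjusted p = 1.83e-06), and SLC2A5, a fructose transporter, rose from 8, 15 and 7 to 207, 257 and 207 counts. SLC1A5, a glutamine transporter, fell from 748 ± 33.8 to 159 ± 2.73 CPM (-2.24 ± 0.05), with 23.8% of its exon bases shared. SLC7A11, the cystine transporter named with its values in view, fell from 99.2 ± 7.26 to 46.2 ± 7.20 CPM, a call that was lost without SP library 3 and when the test was made against 2-fold. ABC transporters and P-type ATPases had 10 of 43 higher (23.3%) and 0 lower (12 were lower at the adjusted p alone), and ABCA13 rose from 4, 7 and 0 to 250, 289 and 271 counts. Ion channels and aquaporins were higher in 35 of 113 (31.0%) and lower in 15 (13.3%), with RYR3, a calcium release channel, down by 3.16 ± 0.23.

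G protein-coupled receptors were higher in 29 of 92 (31.5%) and lower in 11 (11.96%), with the adenosine receptor ADORA1 at 182, 160 and 139 counts in SP and 11, 3 and 3 in Ab. Scavenger, lipoprotein and endocytic receptors were higher in 16 of 46 (34.8%) and lower in 4 (8.70%). TFRC, the transferrin receptor that brings iron into the cell by endocytosis, rose from 4805, 7016 and 5430 to 23604, 26517 and 23308 counts (log2 fold change 2.11 ± 0.05 SE). LRP1, a large endocytic receptor, rose from 44.5 ± 5.60 to 201 ± 10.0 CPM. TFRC and LRP1 were named with their values in view. VLDLR went the other way, from 82, 121 and 98 to 15, 22 and 6 counts. Immune and death receptors were higher and lower in 11 of 74 each (14.9%, beside 12.6% and 10.6% over all genes tested), and IL1RL1, the receptor of interleukin 33, fell from 397, 478 and 430 to 18, 14 and 5 counts (-5.12 ± 0.19).

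**Figure D3:**
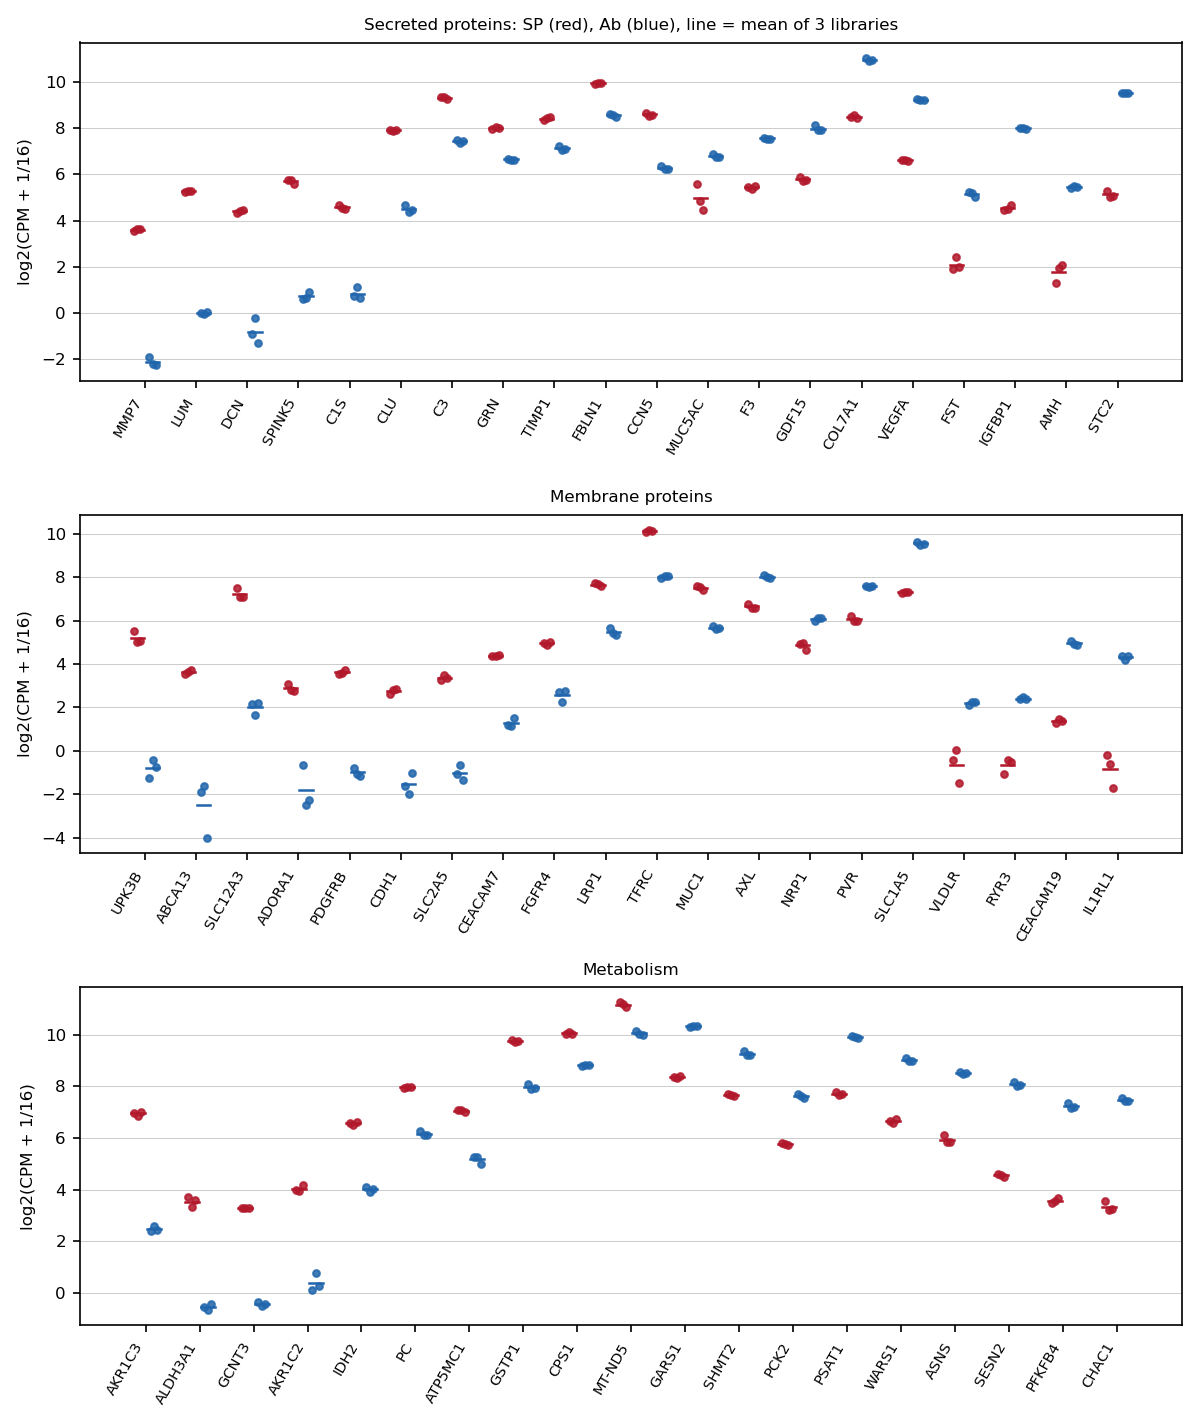
Level of named secreted (top), membrane (middle) and metabolic (bottom) genes in each library, as log2(CPM + 1/16), with 3 red points for SP, 3 blue points for Ab and a line at each mean. Genes run from those higher in SP on the left to those lower on the right of each panel, and the genes named by rule were chosen without overlap between the groups.

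Promoter sequences are shown for 4 genes with large rises in the secreted and membrane classes, to let a reader see what stands before their starts. They are the 250 bases before the start of each gene in RefSeq (GRCh38.p14), 5′ to 3′ on the strand of the gene. Capitals mark matches of the 14 short motifs searched on both strands. The windows are chr11:102530748-102530997 (minus strand) for MMP7, chr7:76510302-76510551 (plus strand) for UPK3B, chr16:56864957-56865206 (plus strand) for SLC12A3 and chr5:148063730-148063979 (plus strand) for SPINK5.
MMP7: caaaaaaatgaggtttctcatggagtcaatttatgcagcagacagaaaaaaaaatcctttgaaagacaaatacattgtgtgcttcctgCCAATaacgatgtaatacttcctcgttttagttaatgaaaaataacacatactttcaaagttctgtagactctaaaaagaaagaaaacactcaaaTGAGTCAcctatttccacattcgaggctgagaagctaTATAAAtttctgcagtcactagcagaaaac
UPK3B: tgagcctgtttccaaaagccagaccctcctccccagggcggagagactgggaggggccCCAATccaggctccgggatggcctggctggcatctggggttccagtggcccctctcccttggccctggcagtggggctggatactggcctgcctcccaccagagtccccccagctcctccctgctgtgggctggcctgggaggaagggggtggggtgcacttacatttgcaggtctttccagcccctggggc
SLC12A3: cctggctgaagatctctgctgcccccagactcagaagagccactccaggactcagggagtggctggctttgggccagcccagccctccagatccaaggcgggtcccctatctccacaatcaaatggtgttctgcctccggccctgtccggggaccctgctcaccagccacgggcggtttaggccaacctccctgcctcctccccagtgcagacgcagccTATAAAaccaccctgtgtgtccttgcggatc
SPINK5: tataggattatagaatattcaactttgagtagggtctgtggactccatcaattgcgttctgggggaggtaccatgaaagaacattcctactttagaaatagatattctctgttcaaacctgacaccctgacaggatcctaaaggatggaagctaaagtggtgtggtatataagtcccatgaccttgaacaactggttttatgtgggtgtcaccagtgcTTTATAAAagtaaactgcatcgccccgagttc
In MMP7 the capitals are a CCAAT box, TGAGTCA (a match of the AP-1 letters TGANTCA) at bases -67 to -61 and TATAAA at -30 to -25. In UPK3B they are a CCAAT box at -192 to -188, with no match of the AP-1 letters and no TATA box. The TATA box TATAAA stands at -31 to -26 in SLC12A3 and at -30 to -25 in SPINK5, where the letters on the other strand overlap it. TGANTCA was found in 3.86% of the 10535 tested genes with a sequence, in 5.15% of those called higher and in 6.03% of those called lower. TATAAA was found in 5.27%, 6.03% and 8.15%. A match is a description of letters and not a bound site. The shares over all 27305 RefSeq promoters were 6.60% for TGANTCA and 11.1% for TATAAA.

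Metabolic enzymes rose as a class. Of 734 tested, 184 were called higher and 60 lower, with a median of 0.42, and without a fold minimum 456 were higher and 176 lower. At or over 10 CPM, 139 of 603 were higher (23.1%, beside 8.04% of all genes at that level) and 38 lower (6.30%, beside 7.07%). The class took 12.8% to 12.96% of counts in SP libraries and 10.5% to 10.9% in Ab libraries, with no overlap. Most of its lists had more rises than falls and a few had more falls.

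Fatty acid oxidation genes had 18 of 46 higher (39.1%) and 0 lower (3 were lower at the adjusted p alone), with a median of 0.93. Cholesterol synthesis and uptake genes had 14 of 34 higher (41.2%) and 0 lower (3 at the adjusted p alone). Fatty acid synthesis and desaturation genes had 9 of 28 higher (32.1%) and 1 lower (3.57%), and glycerolipid and phospholipid genes 10 of 45 higher (22.2%) and 2 lower (4.44%), with a median of 0.15. Sphingolipid genes had 4 of 32 higher and 4 lower (12.5% each), near the shares over all genes tested. Citrate cycle genes had 6 of 27 higher (22.2%, beside 12.6% over all genes tested) and 0 lower (1 at the adjusted p alone), with a median of 0.69. PC, pyruvate carboxylase, which refills the cycle, rose from 72.2 ± 4.32 to 250.1 ± 2.78 CPM. Nuclear oxidative phosphorylation genes had 16 of 71 higher (22.5%) and 3 lower (4.23%), but 57 were higher at the adjusted p alone, and ATP5MC1, a ring subunit of ATP synthase, rose from 36.3 ± 4.15 to 133 ± 5.14 CPM. Of 13 mitochondrial genome mRNAs, 9 were higher at the adjusted p alone and 2 (15.4%) by 2-fold, MT-ND5 and MT-ND6, with MT-ND5 at 2302 ± 155 CPM in SP and 1066 ± 51.5 CPM in Ab.

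Genes of NADPH supply and detoxification rose more often than they fell. IDH2, which makes mitochondrial NADPH, had 2073, 2129 and 2044 counts in SP and 332, 395 and 342 in Ab (log2 fold change 2.55 ± 0.07 SE). Of 18 genes of this list 5 were higher (27.8%) and 0 lower (3 at the adjusted p alone). Xenobiotic, steroid and aldehyde enzymes were higher in 22 of 66 (33.3%) and lower in 8 (12.1%). AKR1C3, a ketosteroid reductase, rose from 100, 158 and 113 to 2745, 2715 and 2668 counts (4.47 ± 0.08), AKR1C2 by 3.64 ± 0.16 and ALDH3A1, an aldehyde dehydrogenase of exposed epithelia, by 4.22 ± 0.20. The AKR1C genes are near copies of each other, so the split of reads between them is uncertain. Glutathione, thioredoxin and peroxide genes were higher in 18 of 62 (29.0%) and lower in 6 (9.68%), with GSTP1, named with its values in view, up from 254 ± 16.6 to 867 ± 32.5 CPM. The falls of this list included CHAC1 and SESN2, which are given below.

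Serine, glycine and one-carbon genes had 6 of 31 higher (19.4%), 11 lower (35.5%) and a median of -0.36. PSAT1, an enzyme of serine synthesis on chromosome 9, fell from 18906, 25192 and 19643 to 4766, 4737 and 4347 counts (log2 fold change -2.19 ± 0.04 SE, adjusted p = 7.25e-25), and PSPH, the next enzyme, by 1.75 ± 0.05. SHMT2 and MTHFD2, which carry one-carbon units in mitochondria and were named with their values in view, fell by 1.61 and 1.69.

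Of 56 other amino acid, urea and polyamine genes, 19 were higher (33.9%) and 5 lower (8.93%), with a median of 0.35. ALDH6A1 and ALDH4A1, which break down valine and proline, rose by 2.72 ± 0.10 and 2.18 ± 0.20 on the log2 scale (SE), with 41.8% of the exon bases of ALDH4A1 shared with another gene, and CPS1, the carbamoyl phosphate synthetase of the urea cycle, named with its values in view, rose from 450.4 ± 6.36 to 1066 ± 37.4 CPM. ASNS, asparagine synthetase, fell from 369 ± 9.80 to 61.8 ± 6.75 CPM, with 49.3% of its exon bases shared with another gene, and GPT2, an alanine transaminase, from 118 ± 4.07 to 27.5 ± 1.73 CPM. Of 37 aminoacyl-tRNA synthetases, 4 were higher (10.8%) and 8 lower (21.6%), with a median of -0.09, and at the adjusted p alone 15 were higher and 16 lower. WARS1 fell from 521 ± 23.1 to 102 ± 4.45 CPM, CARS1 from 236 ± 9.70 to 59.2 ± 3.93 CPM and GARS1, named with its values in view, from 1285 ± 14.96 to 328 ± 6.07 CPM, whereas QARS1 rose by 1.14.

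The 3 largest falls of the class named by the rule lay in the glutathione, thioredoxin and peroxide list (CHAC1 and SESN2) and the glycolysis list (PFKFB4). CHAC1, which degrades glutathione, fell from 3616, 4540 and 3551 to 254, 211 and 195 counts (log2 fold change -4.14 ± 0.08 SE). SESN2, a leucine sensor of the mTORC1 pathway, fell from 5491, 6770 and 5543 to 535, 551 and 462 counts (-3.52 ± 0.06). PFKFB4, which sets fructose 2,6-bisphosphate in glycolysis, fell from 152 ± 11.02 to 11.9 ± 0.825 CPM (-3.67 ± 0.07). All 3 genes were lower in every SP library than in any Ab library by more than 10-fold. In glycolysis as a list, 10 of 36 genes were higher (27.8%) and 2 lower (5.56%). TXNIP, a brake on glucose uptake named with its values in view, fell from 640 ± 2.04 to 161 ± 20.7 CPM, and GFPT1, the entry enzyme of hexosamine synthesis, from 746 ± 22.7 to 170 ± 4.56 CPM.

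Long non-coding RNA genes were called lower more often than higher. Of 1494 tested lncRNA genes, 218 (14.6%) were called higher and 345 (23.1%) lower, with a median of -0.17. Most were scarce, with 1349 of them under 10 CPM. Of these, 211 were higher (15.6%, beside 20.4% of all genes at that level) and 311 lower (23.1%, beside 16.8%). Among the 145 at or over 10 CPM, 7 were higher (4.83%, beside 8.04% of all genes at that level) and 34 lower (23.4%, beside 7.07%). The sources used here do not say whether reads were counted by strand, so lncRNA genes that overlap another gene are uncertain. Among the 657 that share no exon base with any other gene, 118 were higher (17.96%) and 146 lower (22.2%). Pseudogenes, whose reads can come from their parent genes, were higher in 67 of 1175 (5.70%) and lower in 155 (13.2%), beside 12.6% and 10.6% over all genes tested. Under 10 CPM, 62 of 986 were higher (6.29%) and 136 lower (13.8%), beside 20.4% and 16.8% of all genes at that level. At or over 10 CPM, 5 of 189 were higher (2.65%) and 19 lower (10.1%), beside 8.04% and 7.07%.

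Named intergenic lncRNA genes showed large changes in both directions. LINC01671 on chromosome 21 had 39, 56 and 57 counts in SP and 0, 0 and 0 in Ab, at least 51.1-fold higher against a floor of 3 counts over the Ab group. LINC01843 on chromosome 5 had 144, 136 and 143 counts against 11, 10 and 2 (log2 fold change 4.19 ± 0.28 SE). LINC00163 on chromosome 21 had 16, 18 and 20 counts in SP and 168, 212 and 165 in Ab (-3.32 ± 0.19). The lowest value among the lncRNA genes named by the rule was -3.83, in ENSG00000270020 on chromosome 16. Named called genes were chosen among those whose groups do not overlap.

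Small nucleolar RNA host genes, whose introns release guide RNAs for ribosome synthesis and whose spliced transcripts are often short-lived, had a median of -1.24, with 2 of 25 called higher (8.00%) and 13 lower (52.0%). GAS5 on chromosome 1 fell from 23232, 33492 and 24700 to 4260, 4423 and 3752 counts (1224 ± 47.6 to 189 ± 6.98 CPM, log2 fold change -2.69 ± 0.05 SE, adjusted p = 3.46e-26). SNHG5 fell from 126 ± 4.29 to 21.6 ± 1.22 CPM. ZFAS1 and SNHG1, named with their values in view, fell from 797 ± 25.5 to 154 ± 5.78 CPM and from 212 ± 2.59 to 45.4 ± 4.64 CPM, with 38.6% of the exon bases of ZFAS1 shared with another gene. The summed level of the list was 994 ± 8.74 CPM in SP and 3550 ± 4.90 CPM in Ab. DANCR rose from 11.5 ± 0.312 to 25.04 ± 1.56 CPM, a call lost when the test was made against 2-fold, and SNHG16 did not pass the adjusted p, at 50.3 ± 2.46 and 52.4 ± 0.559 CPM, so not every host gene fell.

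H19, the imprinted growth-related RNA on chromosome 11, went the other way. This gene, named with its values in view, rose from 13991, 17709 and 14498 to 63620, 63630 and 57544 counts (699.6 ± 24.8 to 2813 ± 88.2 CPM, log2 fold change 2.01 ± 0.04 SE). Cancer-associated lncRNAs were higher in 4 of 42 (9.52%) and lower in 7 (16.7%), beside 14.6% and 23.1% of all lncRNA genes tested, with LINC00467 up by 1.79 ± 0.13 and MIR503HG and LINC00662 down by 2.68 ± 0.17 and 2.11 ± 0.08. Of 12 nuclear and architectural lncRNAs, FTX was the call, from 57.8 ± 6.68 to 13.4 ± 0.879 CPM, with 32.0% of its exon bases shared with another gene. Small RNA genes, which poly-A libraries catch only in part, passed the filter in 44 cases. Of these, 1 was called higher (2.27%) and 19 lower (43.2%), among them 12 of 20 microRNA genes. The shares over all genes tested were 12.6% and 10.6%, and those of all genes under 10 CPM were 20.4% and 16.8%.

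**Figure D4:**
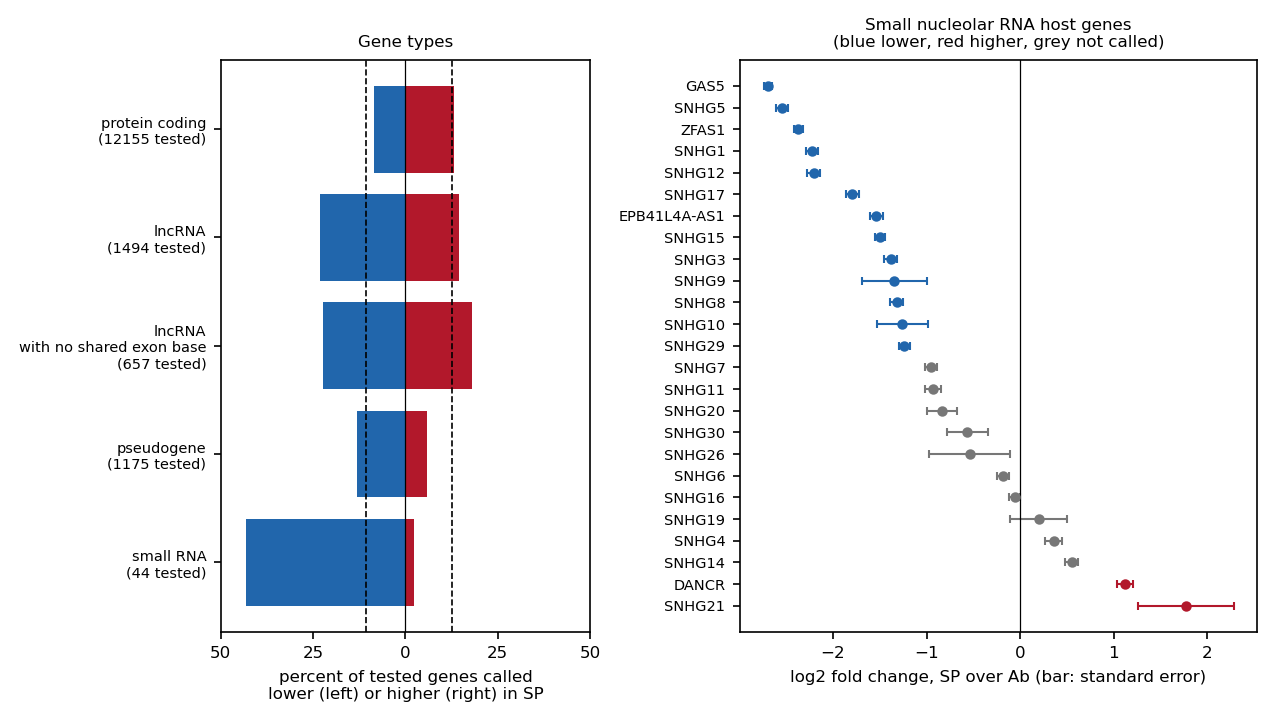
Left: share of the tested genes of each gene type called lower (blue) and higher (red) in SP, in percent, with dashed lines at the shares over all genes tested. Right: log2 fold change of SP over Ab for the 25 small nucleolar RNA host genes tested, with standard errors; 13 are called lower, down to GAS5 at -2.69, and 2 higher.

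The named genes were placed against the nanorod group to see whether their levels with spheres differed from those with rods. Of 14903 genes tested between SP and NR, 66 (0.443%) passed the adjusted p of edgeR's quasi-likelihood test. Of 255 genes named by the rule, 221 were tested and 0 passed, while 32 had an unadjusted p under 0.05. The median size of their difference was 0.091 on the log2 scale. The largest was 1.79, in COL1A2, which was not called between SP and Ab. Among those called between SP and Ab the difference was at most 0.97. A p that misses the threshold does not show that spheres and rods act alike. LRP1 and ZFAS1, chosen with their values in view, passed at 0.27 and -0.22.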

How the data were processed

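RNA of SNU5 cells was sequenced by the authors as poly-A libraries (NEBNext Ultra, paired ends), and the deposited values are raw read counts per Ensembl gene, 1 column per library. Per the submitters' processing notes HISAT2 2.1.0 and DESeq2 1.16.1 were used and the build is named as mm9, while the study's reporting summary names a human build, and all identifiers are human. The counting tool differs between the methods and that summary, and strand and annotation release are not given in the sources used here. Gene types, positions and exon sharing were taken from GENCODE 44 on GRCh37 (59858 of 60880 identifiers matched).

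Counts were fitted with edgeR 4.0.16 in R 4.3.3 (TMM, filterByExpr with a minimum count of 10 and a total of 15, robust quasi-likelihood test) on the 3 SP and 3 Ab libraries. P-values were adjusted over all genes. CPM used TMM effective library sizes. SE is the fold change divided by the root of F. On simulated counts the fit recovered 100% of 200 changed genes, with 9 false calls among 14970 genes. The changed genes were drawn from well-counted ones, all genes had the same dispersion, and the adjusted p alone was scored. The simulation therefore does not measure recovery among scarce genes or of calls that also need a 2-fold change. DESeq2 1.42.0, other scalings, filters and fold minimums, a replicate block, a fit of all 9 libraries and leaving out each library were tried.

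The gene lists (54) and the comparison were chosen with earlier results of these data known. Genes were named by rule: the 10 protein-coding genes with the largest rise and fall among called genes with no overlap and at least 100 mean counts, 4 each way per class, 5 lncRNA genes each way with at least 50 counts, up to 2 each way per list, and 27 regulators and the cell identity lists whatever their values. A further 25 genes were named after their values were seen. Promoters are RefSeq GRCh38 windows. Some genes that the rule names are not reported here.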

Additional observations from a re-analysis of the deposited data

How the results depend on the processing

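Under DESeq2, 2143 genes were called higher and 1673 lower. Other scalings gave 1903 and 1594 (RLE), 1971 and 1519 (library totals) and 2098 and 1426 (upper quartile, where 59.5% of calls were rises beside 54.2%). With glmTreat against 2-fold 2131 genes were called (1233 higher, 898 lower), with a 1.5-fold minimum 6385 (3301 and 3084) and with no fold minimum 11002 (5492 and 5510). Counts by class are given here where they moved by more than 1.5-fold from the main edgeR fit. Under glmTreat the secreted, membrane and metabolic genes called higher (85, 175 and 184 in the main fit) did not move by that much. The glmTreat test called 30 transcription factor genes higher and 76 lower, 31 secreted, 48 membrane and 39 metabolic genes lower, and 100 lncRNA genes higher and 171 lower. The 1.5-fold minimum gave 96 and 275 transcription factor genes, 313 and 102 metabolic genes and 135 membrane genes called lower, and no fold minimum gave 140 and 83 secreted, 333 and 214 membrane and 349 and 528 lncRNA genes. Leaving out each library in turn gave 3620 to 3718 calls, 1898 to 2060 higher and 1621 to 1744 lower. A filter of at least 10 counts in every library left 13398 genes to test and 1314 called higher and 1167 lower, and with no filter 31303 genes gave 2427 and 1992. The first filter left 37 transcription factor, 50 secreted and 115 membrane genes called higher and 103 lncRNA genes called higher and 169 lower, fewer genes being tested, and without a filter 390 lncRNA genes were called higher. All 9 libraries in 1 fit gave 2041 and 1645.

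No named gene that was called between SP and Ab changed sign under the settings where it had a value. Changes of sign in named genes without a call were not counted. With the filter of 10 counts in every library, 214 of 249 named genes had a value and the rest were untested. MID1IP1 was the gene that lost its call most often. Under glmTreat 11 named genes lost their call, among them MUC5AC, DANCR and SLC7A11. SLC7A11 also lost it without SP library 3.

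Same-numbered SP and Ab libraries deviated together only weakly (r 0.020 to 0.025, others -0.018 to -0.003). The labels do not say whether they share more than a number. Each library correlated best with its own number, a hint from the data and not from the design. With the replicate block 1896 genes were called higher and 1597 lower, and 3470 of the calls were shared with the fit without it.

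The 3 libraries per group, the unstated strand and the lack of untreated and gold-only libraries limit what can be read from the comparison: effects of the sphere, the linker and coupling cannot be told apart. Genes under about 3 counts in a library were at the limit of detection.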

Other observations

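RNU6-1, a spliceosomal small nuclear RNA gene chosen with its values in view, had 789, 855 and 7133 counts in SP and 0, 3 and 708 in Ab (adjusted p = 0.151 by edgeR). Library 3 was the highest of each group.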
